A study of Mus musculus with 96 samples.

Results

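In the 2N+ gate, 5 of the 35 single nuclei of the mouse line KPC1199EGFP carried chromosome 3 at about 3 copies, where the other 30 carried about 4 or more. They were chosen by a rule on the readout itself. The median bin value of chromosome 3 was divided by that of chromosome 4 in each nucleus and given as copies with chromosome 4 set to 2, and nuclei below 3.5 copies were called the minority and nuclei at or above 3.5 copies the majority. The numbers of the 5 minority nuclei within their gate were 2, 22, 24, 25 and 32. The name trisomic for chromosome 3 fitted the chromosome median of each of the 5, but not for the whole length of the chromosome in nucleus 32.

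The series held 96 whole-genome sequencing libraries of KPC1199EGFP, a pancreatic cancer cell line on a C57BL\6 strain background that expresses the green fluorescent protein EGFP. Cells grew attached to the dish, were taken at passage 9 and received no treatment. The nuclei were stained with the DNA dye DAPI and separated on a flow cytometer by their DNA content, and the genomic DNA of each nucleus was amplified with the SeqXE kit. The 2N+ gate gave 35 nuclei, the 2N gate 47 and the 4N gate 12, and 2 libraries were of bulk samples. All groups therefore shared line, passage and the absence of treatment, and differed by the gate they were sorted in. The 5 minority nuclei had library indices 50, 70, 72, 73 and 80, inside the range of 49 to 83 of the majority, while the 2N gate had indices 1 to 48. Index and gate therefore cannot be told apart. Nuclei of 1 culture are not replicates of a condition and the minority was chosen from the same profiles, so values below are descriptions with no test.

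The deposited values are linear copy ratios, already joined into segments of equal value, in 4906 bins (median width 486 kb), and positions are in mm9. Read depth is unknown, so no counting error can be given for a bin. Here a value was turned into copies by setting the median of chromosome 4 to 2 copies in every nucleus. Copies in this sense are relative within a nucleus: a nucleus with each chromosome doubled would give the same numbers.

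A cell that divides copies its DNA once in S phase, between the gap phases G1 and G2. Different parts of the genome are copied at different times, in an order that is largely kept from cell to cell of a type, so a nucleus in S phase holds some stretches already copied beside others not yet copied. In sequencing of single nuclei such stretches appear as steps inside chromosomes, whereas a whole-chromosome gain or loss (aneuploidy) moves a chromosome along its whole length. A gate for nuclei with more DNA than the 2N peak can hold aneuploid G1 nuclei and S-phase nuclei, and the question behind the split was whether the minority resembled nuclei of the 2N gate that had begun S phase.

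The values that chose the 5 nuclei were as follows. The median of chromosome 3 was 3.06 copies in nucleus 32, 3.07 in nucleus 2, 3.14 in nucleus 25, 3.20 in nucleus 24 and 3.24 in nucleus 22. In the 30 majority nuclei it ran from 3.86 to 4.63 copies with a median of 3.94. No 2N+ nucleus lay between nucleus 22 at 3.24 copies, just inside the threshold, and nucleus 16 at 3.86, just outside it. The 5 nuclei made up 14.3% of the gate (exact Clopper-Pearson 95% interval 4.81 to 30.3, which covers counting error only). In the 2N gate 42 of 47 nuclei, or 89.4% (76.9 to 96.5), were below 3.5 copies, and in the 4N gate 8 of 12 were.

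**Figure D1:**
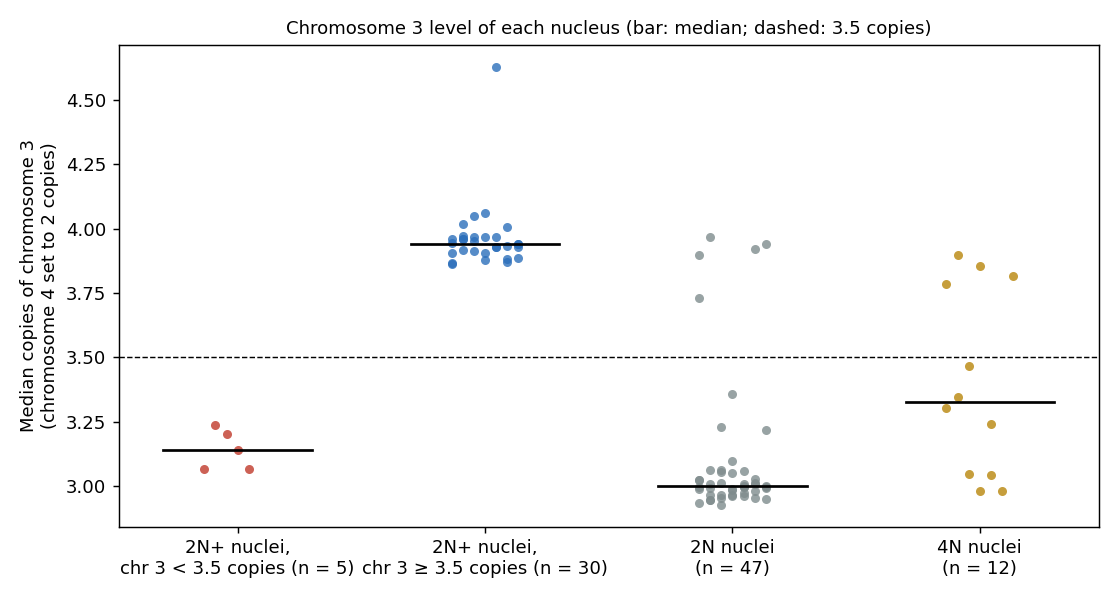
Median copies of chromosome 3 with chromosome 4 set to 2 (y axis), 1 point per nucleus, for the 5 minority and the 30 majority nuclei of the 2N+ gate, the 2N gate and the 4N gate; the bar is the median and the dashed line the threshold of 3.5 copies. The minority lies from 3.06 to 3.24 copies, the majority from 3.86 to 4.63, and the median of the 2N gate is 3.0.

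Along chromosome 3, which carries the gene of cyclin A2 (Ccna2), a cyclin of S phase and G2, the 5 nuclei were not alike. Nuclei 2 and 22 had 100% of the 308 bins at 3 copies or fewer after rounding, nucleus 24 had 94.2% and nucleus 25 had 94.8%. Nucleus 2 had 2 segments, of 3.07 and 2.91 copies. Nucleus 32 was different: 49.4% of its bins stood at 4 copies or more. Its first 102 bins, from 1 to 56138115, were at 4.03 copies, and 4 short segments at 5.39, 3.87, 4.77 and 6.93 copies came next. From 81965146 to the chromosome end, over 156 bins, it was at 3.06 copies.

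The median of nucleus 32 fell in the second of these stretches by a small margin. Its mean over the bins of chromosome 3 was 3.73 copies, so by means over bins it was on the other side of the threshold and the minority had 4 nuclei. The means of the others were 3.03 copies in nucleus 2, 3.13 in nucleus 25, 3.14 in nucleus 22 and 3.21 in nucleus 24. Among the majority, the highest share of bins at 3 copies or fewer was 2.27%, in nucleus 4.

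**Figure D2:**
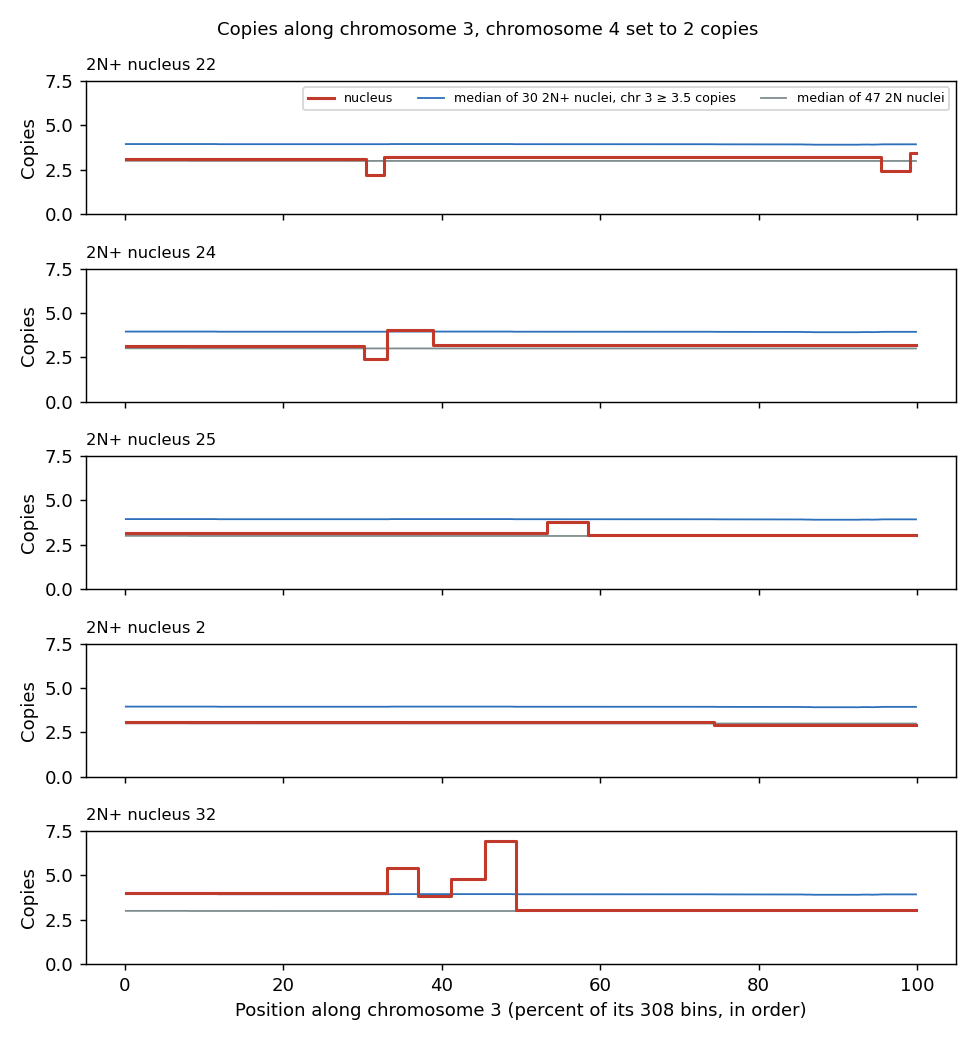
Copies along chromosome 3 (y axis, copies with chromosome 4 set to 2) against position in percent of its 308 bins, 1 panel per minority nucleus in red, with the median of the 30 majority nuclei in blue and the median of the 47 2N nuclei in grey. Nucleus 32 is at 4.03 copies at the start and at 3.06 copies in the second part, while the other 4 nuclei stay close to the 2N median over most of the chromosome.

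The other chromosomes split the minority into 3 nuclei and 2 nuclei. In nuclei 22, 24 and 25, chromosomes 1, 15, 16 and 18 were near 2 copies and chromosome X near 1 copy. In nuclei 2 and 32 the medians of the same autosomes were near 3 copies and that of X near 2 copies.

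Chromosome 15, which carries the growth-promoting transcription factor gene Myc, was at 2.25 copies in nucleus 22, 2.06 in nucleus 24 and 2.05 in nucleus 25, and at 2.95 in nucleus 2 and 2.90 in nucleus 32. The majority had a median of 2.94 (2.00 to 3.64) and the 2N gate a median of 2.03 (1.98 to 3.18). The first 3 nuclei were thus nearer to the 2N median and the other two to the majority median. Chromosome 15 was at 2 copies in 3 of 5 minority nuclei, 1 of 30 majority nuclei and 35 of 47 2N nuclei.

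Chromosome X showed the same division, at 1.22 copies in nucleus 22, 1.19 in nucleus 24 and 1.13 in nucleus 25, and at 2.03 in nucleus 2 and 1.98 in nucleus 32. The majority median was 1.99 (1.05 to 2.98) and the 2N median 1.06 (1.02 to 2.04). A single copy of X was found in 3 of 5 in the minority, 8 of 30 in the majority and 43 of 47 in the 2N gate, so a single X also occurred with 4 copies of chromosome 3.

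Chromosome 16 was at 2.17 copies in nucleus 22, 2.15 in nucleus 24 and 2.07 in nucleus 25, and at 2.84 in nucleus 2 and 2.94 in nucleus 32. The majority median was 2.88 (1.99 to 4.47) and the 2N median 2.02 (1.94 to 2.93). At 2 copies were 3 of 5 minority nuclei, 10 of 30 majority nuclei and 42 of 47 2N nuclei. The ranges of minority and majority thus overlapped widely for this chromosome. By region the 2N gate was uneven, with medians of 2.00 copies from 19135649 to 66290027 but 2.91 from 1 to 19135648. The 2N median was 2.80 from 66290028 to 80661653 and 2.84 from 83740532 to 98319150. Nuclei 22, 24 and 25 stood between 2.07 and 2.21 copies in each of these regions. They were thus near the 2N median in part of the chromosome only.

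Chromosomes 1 and 18 divided the 5 nuclei in the same way, but here both medians outside the minority were near 3 copies. Chromosome 1 was at 2.20 copies in nucleus 22, 2.12 in nucleus 24 and 2.07 in nucleus 25, and at 2.93 in nucleus 2 and 2.94 in nucleus 32. The majority median was 2.97 and the 2N median 2.92, with 4 of 30 majority nuclei and 17 of 47 2N nuclei at 2 copies. Chromosome 18, home of Smad4, a mediator of TGF-beta signals that is often lost in pancreatic cancer, was at 2.11 copies in nucleus 22, 2.25 in nucleus 24 and 2.08 in nucleus 25, and at 2.95 in nucleus 2 and 3.01 in nucleus 32. Its median was 2.98 in the majority and 2.87 in the 2N gate, with 3 of 30 majority nuclei and 21 of 47 2N nuclei at 2 copies. The state of chromosomes 1 and 18 in nuclei 22, 24 and 25 was therefore present, but not the most frequent one, in the 2N gate.

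The states also came together as sets. Chromosomes 1, 15, 16 and 18 at 2 copies with X at 1 copy were found in 3 of 5 minority nuclei, 0 of 30 majority nuclei and 13 of 47 2N nuclei (27.7%). The set with these 4 autosomes at 3 copies and X at 2 copies was found in 2 of 5 minority nuclei, 8 of 30 majority nuclei (26.7%) and 1 of 47 2N nuclei (2.13%). These sets were written down from the minority nuclei themselves, so only the counts in the other groups carry information beyond the choice.

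Chromosome 2 differed among the nuclei by region. By its median it was at 2.43 copies in nucleus 22, 2.18 in nucleus 24, 2.06 in nucleus 25, 3.85 in nucleus 2 and 2.99 in nucleus 32, against a median of 3.01 (2.93 to 4.56) in the majority and 2.91 (1.94 to 4.04) in the 2N gate. A step at 97908371 was present in nuclei 22, 24 and 25. From there to 181748087, over 167 bins, the mean was 3.10 copies in nucleus 22, 3.09 in nucleus 24, 3.87 in nucleus 25, 3.85 in nucleus 2 and 2.99 in nucleus 32, against a median of 3.02 in the majority and 2.95 in the 2N gate. The lower chromosome 2 of nuclei 22, 24 and 25 was thus a feature of its proximal part and not of its distal part. Before the step, 191 bins were at 2.18 copies in nucleus 24 and at 2.06 in nucleus 25. Part of this stretch was low in nucleus 32 too: from 14885854 to 75743670 the level was 2.10 copies in nucleus 22, 2.87 in nucleus 2 and 2.01 in nucleus 32, against medians of 2.57 in the majority and 1.97 in the 2N gate.

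Set against the majority as groups, the difference of medians, minority minus majority, was -0.76 copies for chromosome 1, -0.59 for chromosome 2, -0.69 for chromosome 15, -0.70 for chromosome 16, -0.72 for chromosome 18 and -0.77 for chromosome X. The other 12 autosomes differed by -0.04 to 0.09 copies. A median over 5 nuclei of which 3 are near 2 copies and 2 near 3 copies stands at the edge of the lower set, so each of these values rests on 1 nucleus. Without nucleus 22 the differences were -0.44, -0.43, -0.46, -0.38, -0.38 and -0.40 for chromosomes 1, 2, 15, 16, 18 and X. Without nucleus 24 they were -0.40, -0.30, -0.37, -0.37, -0.45 and -0.39, and without nucleus 25 -0.40, -0.30, -0.37, -0.37, -0.38 and -0.39. In each of these 3 cases all 6 differences were smaller in size than 0.5 copies, and the values of the single nuclei are the safer description.

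Over the 4033 bins of the autosomes other than 3 and 4, 1073 (26.6%) differed by 0.5 copies or more between the median of the minority and that of the majority. The minority was lower in 1055 bins (26.2%) and higher in 18 (0.446%). Lower bins covered 273 of 288 bins of chromosome 1, 198 of 203 of chromosome 15, 184 of 192 of chromosome 16, 178 of 178 of chromosome 18, 143 of 358 of chromosome 2 and 76 of 251 of chromosome 8. Bins of 1 segment share a value, so these counts follow the chromosome states above. The count was 302 without nucleus 22, 260 without nucleus 24 and 156 without nucleus 25.

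The lower bins of chromosome 8 were at its start. The region from 5828488 to 43134033, 70 bins, was at 2.04 copies in nucleus 22, 2.04 in nucleus 24 and 1.99 in nucleus 25, and at 2.98 in nucleus 2 and at 2.95 in nucleus 32. Its median was 2.95 in the majority and 2.04 in the 2N gate. Nuclei 22, 24 and 25 thus carried the lower start of chromosome 8 that was typical of the 2N gate, and nuclei 2 and 32 did not.

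Of the 18 higher bins, 12 were at the start of chromosome 1. The 12 bins from 3559438 to 14785728 were at 3.72 copies in nucleus 22, 4.75 in nucleus 24 and 4.71 in nucleus 25, and at 3.06 in nucleus 2 and 2.94 in nucleus 32. The majority had a median of 3.01 there (2.11 to 3.90) and the 2N gate a median of 2.97 (2.06 to 5.81). Rounded values of 4 or more were found in 2 of 30 majority nuclei and 10 of 47 2N nuclei. Nuclei 24 and 25 lay above the highest majority nucleus and within the range of the 2N gate. At the start of chromosome 5, from 1 to 5715257, the region with the widest spread, the levels were 10.3 copies in nucleus 22, 10.6 in nucleus 24, 8.46 in nucleus 25, 8.98 in nucleus 2 and 5.63 in nucleus 32, against medians of 9.41 in the majority and 8.92 in the 2N gate. No division of the 5 nuclei of the kind seen for chromosome 15 appeared there.

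Several chromosomes had 1 state in the whole minority. Chromosomes 7, 9, 10, 12, 13 and 14 were between 1.95 and 2.17 copies in the 5 nuclei, and chromosomes 11, 17 and 19 between 2.90 and 3.20. Chromosome 11 carries Trp53, the gene of the tumour suppressor p53. Chromosome 4, the denominator, carries the cell cycle inhibitor gene Cdkn2a.

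**Figure D3:**
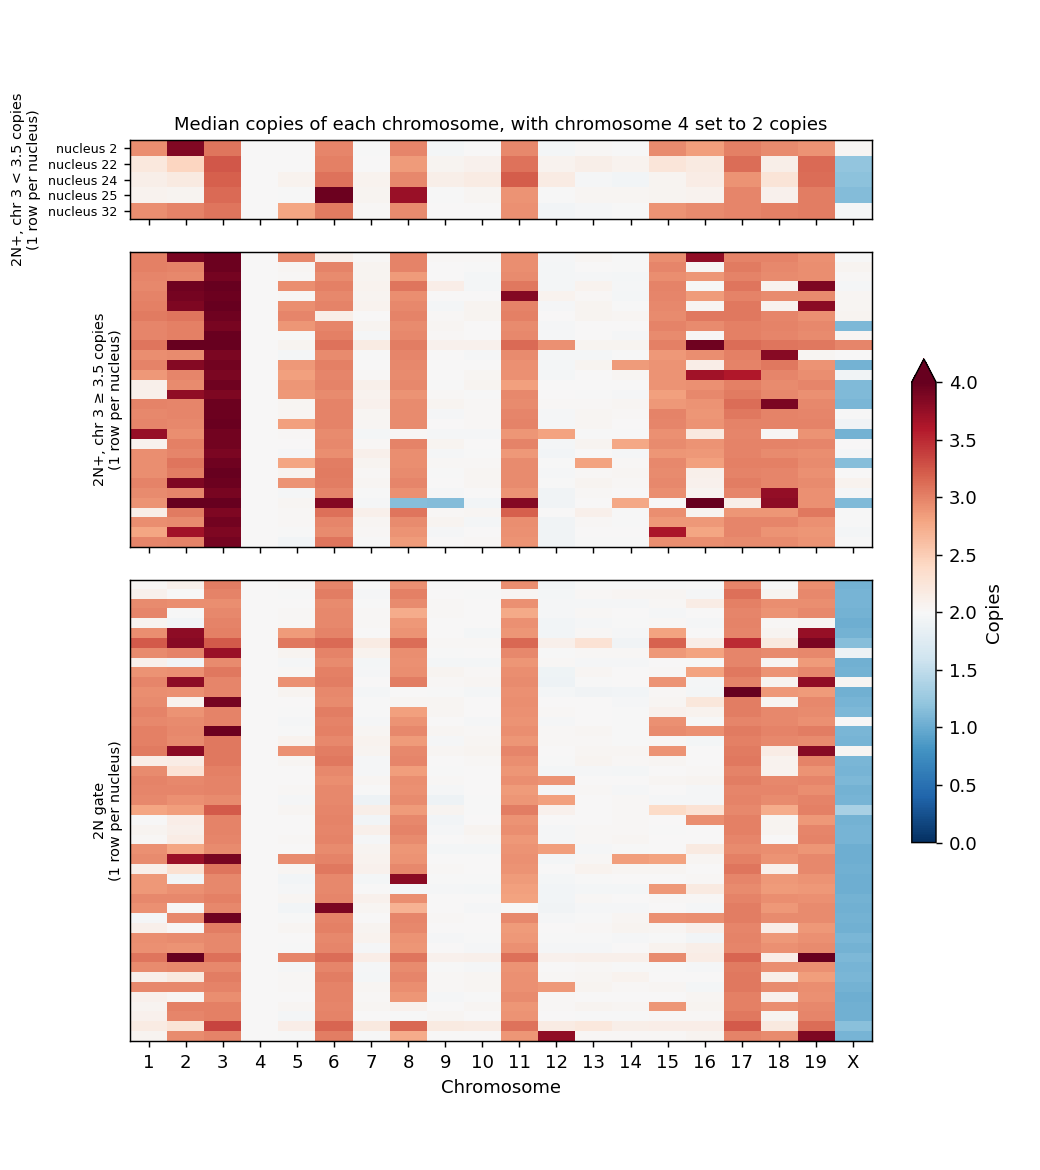
Median copies of chromosomes 1 to 19 and X (columns; colour scale in copies, with chromosome 4 set to 2 and values above 4 shown in the darkest red), 1 row per nucleus, for the 5 minority nuclei (top), the 30 majority nuclei (middle) and the 47 nuclei of the 2N gate (bottom). Nuclei 22, 24 and 25 have chromosomes 1, 15, 16 and 18 near 2 copies and X near 1, and nuclei 2 and 32 have them near 3 and 2.

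The whole profile was compared with each group by the mean absolute difference of chromosome copies over the 17 autosomes other than 3 and 4, with medians that left out the nucleus itself. The distances to the 2N median and to the majority median were 0.193 and 0.274 copies for nucleus 22, 0.214 and 0.309 for nucleus 24 and 0.274 and 0.386 for nucleus 25. They were 0.182 and 0.0722 copies for nucleus 2 and 0.183 and 0.0722 for nucleus 32. The 2N profile was the nearer one for 3 of 5 minority nuclei (60%, interval 14.7 to 94.7), for 0 of 30 majority nuclei (upper bound 11.6%) and for 38 of 47 2N nuclei. The count in the majority was 2 over all bins, 3 with chromosome X added and 1 with copies set by chromosomes 7, 9, 10 and 13.

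The nearest single profiles gave the same picture. Of the 93 other nuclei, the 10 nearest to nucleus 22 were 9 2N nuclei and nucleus 24, the 10 nearest to nucleus 24 were 9 2N nuclei and nucleus 22, and the 10 nearest to nucleus 25 were all of the 2N gate. The 10 nearest to nucleus 2 were 8 majority nuclei and 2 2N nuclei, and the same numbers held for nucleus 32. Nucleus 2 differed from the most frequent state of the majority at 1 of 18 chromosomes, chromosome 2, and nucleus 32 at 1, chromosome 5. Chromosomes 3 and 4 were not counted. These states are rounded chromosome medians and miss changes in part of a chromosome. In nucleus 2, 53 bins of chromosome 1 from 142995387 to 169297674 were at 2.06 copies. In nucleus 32, chromosome 8 from 98108830 to 131738871 was at 2.12 copies, against a majority median of 2.94. Nuclei 22 and 24 differed from the most frequent state of the 2N gate at 3 chromosomes (1, 2 and 18) and nucleus 25 at 5 (1, 2, 6, 8 and 18). From that of the majority nuclei 22 and 24 differed at 6 chromosomes and nucleus 25 at 8.

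Mean copies over the autosomal bins, again with chromosome 4 at 2 copies, were 2.40 in nucleus 22, 2.43 in nucleus 24, 2.49 in nucleus 25, 2.60 in nucleus 2 and 2.61 in nucleus 32. The majority had a median of 2.65 (2.56 to 2.83) and the 2N gate a median of 2.45 (2.31 to 2.78). The bins of chromosome 3, on which the nuclei were chosen, are part of this mean and lower it in the minority by construction. Without chromosomes 3 and 4, the means were 2.37 copies in nucleus 22, 2.40 in nucleus 24, 2.48 in nucleus 25, 2.61 in nucleus 2 and 2.57 in nucleus 32, against medians of 2.60 in the majority (2.49 to 2.78) and 2.44 in the 2N gate (2.28 to 2.79). On that scale nuclei 22, 24 and 25 lay below the majority range, nucleus 25 by a small margin. All 5 lay within the range of the 2N gate, but that range also covered the whole majority range and so does not set them apart. This mean is built from relative values and is no measure of the DNA content of a nucleus.

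The number of value changes inside chromosomes 1 to 19 was higher in nuclei 22, 24 and 25 than in nuclei 2 and 32. Nucleus 25, however, was much closer to nuclei 2 and 32 than to nuclei 22 and 24. Nucleus 22 had 89 changes and nucleus 24 had 81, while nucleus 25 had 32, nucleus 2 had 20 and nucleus 32 had 17. The majority had a median of 18.5 (8 to 68), the 2N gate of 18 (5 to 34) and the 4N gate of 27 (10 to 98). More than 60 changes were found in 2 of 5 nuclei in the minority, 1 of 30 in the majority, 0 of 47 in the 2N gate and, for the 4N nuclei, 3 of 12. Nuclei 22 and 24 stood above every majority and 2N nucleus, nucleus 25 lay within the range of either group, and nuclei 2 and 32 were at their medians or near them.

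The changes of nuclei 22 and 24 were not small. Steps of 0.5 copies or more numbered 74 in nucleus 22, 72 in nucleus 24 and 24 in nucleus 25. Nucleus 2 had 8 and nucleus 32 had 13. The medians were 9 in the majority (3 to 58), 9 in the 2N gate (4 to 23) and, among 4N nuclei, 14 with a highest count of 87. Nucleus 25 thus lay just above the 2N range. In the majority the highest counts were 58 in nucleus 31 and 20 in nucleus 5. In chromosomes 4, 7, 9, 10 and 13, which were near 2 copies in nearly every nucleus, the changes numbered 17 in nucleus 22, 20 in nucleus 24, 6 in nucleus 25, 3 in nucleus 2 and 0 in nucleus 32. The majority had a median of 2 there (0 to 9), the 2N gate of 2 (0 to 12) and the 4N gate of 5 (0 to 15). Nuclei 22 and 24 thus lay above every nucleus of the other groups in these chromosomes. The median segment length was 20.5 bins in nucleus 22, 17.5 in nucleus 24, 58 in nucleus 25, 109 in nucleus 2 and 140 in nucleus 32, against medians of 109 in the majority, 112 in the 2N gate and, among 4N nuclei, 60 with a lowest value of 16. Short segments were thus spread over chromosomes of even state too.

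Values between whole copies were also most frequent in nuclei 22 and 24 within the minority. More than 0.2 copies from a whole number were 31.8% of the autosomal bins of nucleus 22, 28% of nucleus 24, 6.06% of nucleus 25, 2.22% of nucleus 2 and 5.41% of nucleus 32. The median was 3.81% in the majority (0.604 to 27.8), 1.88% in the 2N gate (0 to 30.1) and, among 4N nuclei, 14.6% (4.51 to 48.8). This share depends on chromosome 4 as the denominator, and no other denominator was tried for it. Long segments just past the limit count in full. In nucleus 22 these include 193 bins of chromosome 3 at 3.24 copies and 204 bins of chromosome 1 at 2.20. By this share nucleus 22 was above the highest majority and 2N nucleus, and nucleus 24 was not above the highest 2N nucleus. Both lay within the range of the 4N gate, as they did for steps over all autosomes and for segment lengths. In chromosomes 4, 7, 9, 10 and 13 alone the share was 20.6% in nucleus 22 and 22.3% in nucleus 24. The highest share there was 5.38% in the 4N gate, 12.9% in the majority and 34.5% in the 2N gate.

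**Figure D4:**
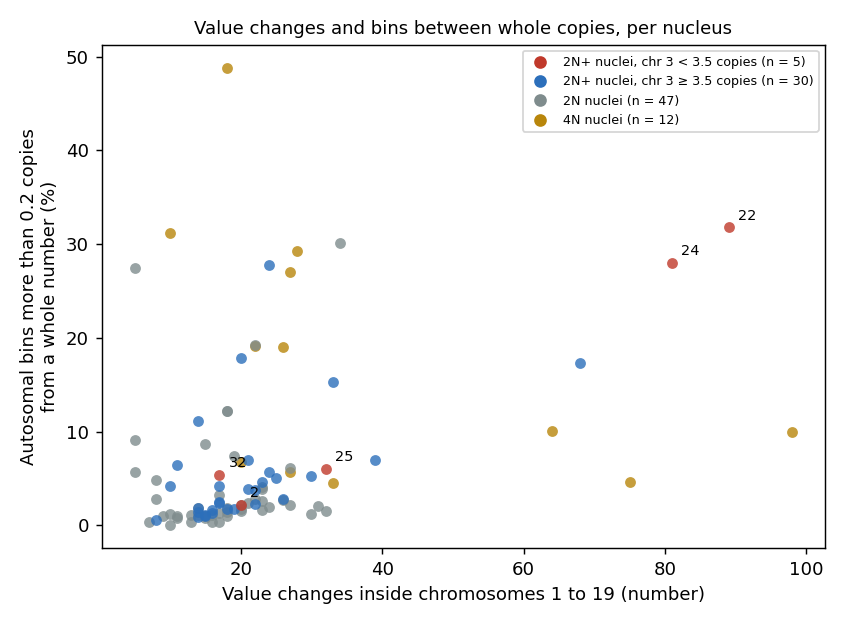
Percent of autosomal bins more than 0.2 copies from a whole number (y axis) against the number of value changes inside chromosomes 1 to 19 (x axis), 1 point per nucleus, coloured by group, with the minority nuclei numbered. Nuclei 22 and 24 lie at 89 and 81 changes, and nuclei 25, 2 and 32 lie among the majority and the 2N nuclei.

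The places of the changes were compared on 10 chromosomes without a shared karyotype step (6, 7, 9, 10, 11, 12, 13, 14, 17 and 19), with 2272 bins. These chromosomes were picked after the profiles had been seen. Each bin was set against the median of its own chromosome in the same nucleus, less the usual deviation of that bin in the 2N gate. Bins lower by 0.3 copies or more made up 12.9% of the 2272 in nucleus 22 (294 bins) and 11.4% in nucleus 24 (259 bins). Bins higher by as much made up 2.46% in nucleus 22 and 9.38% in nucleus 24. Low bins shared by both numbered 137, which is 46.6% of those of nucleus 22 and 52.9% of those of nucleus 24, in 13 runs on 8 chromosomes. High bins shared by both numbered 13.

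The 137 shared low bins were chosen for being low in nuclei 22 and 24. Values of 2N nuclei entered through the usual 2N deviation taken off each bin, and those of the remaining nuclei were not used. The mean deviation in them was -0.27 copies in nucleus 25, -0.01 in nucleus 2 and -0.01 in nucleus 32. In nucleus 31 of the majority it was -0.40 copies, and over the majority and the 2N gate the medians were 0.00 and 0. Taking off the usual 2N deviation holds the 2N median near 0, so that median is no separate comparison. Lower by 0.3 copies or more were 46.7% of the shared bins in nucleus 25 and 68.6% in majority nucleus 31, while the highest share of any 2N nucleus was 39.4% and of any 4N nucleus 38.7%. Over all 2272 bins the share of low bins was 3.74% in nucleus 25 and 11.2% in nucleus 31, and at most 6.69% in a 2N nucleus and 6.16% in a 4N nucleus. Nucleus 31, the majority nucleus with 68 changes, had chromosome 3 at 3.87 copies, so low stretches of the same places were not limited to nuclei with 3 copies of chromosome 3.

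Examples show the size. On chromosome 7 from 143509236 to 145810190 the mean was 1.28 copies in nucleus 22, 1.28 in nucleus 24 and 1.57 in nucleus 25, and 1.99 in nucleus 2 and 2.03 in nucleus 32, against 2.02 in the majority and 2.00 in the 2N gate by median. On chromosome 12 from 18417117 to 31310180 it was 1.42 copies in nucleus 22 and 1.36 in nucleus 24, but 1.99 in nucleus 25. On chromosome 6 from 135992356 to 148528639 it was 2.35 copies in nucleus 22 and 2.47 in nucleus 24, and 3.47 in nucleus 25, whose chromosome 6 had a median of 3.96. Nucleus 25 thus shared some of the low runs of nuclei 22 and 24 and not others.

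Across the 2272 bins, the deviations of nucleus 22 correlated at 0.556 with those of nucleus 24, at 0.304 with nucleus 25 and at 0.440 with majority nucleus 31. Those of nucleus 24 correlated at 0.445 with nucleus 25 and at 0.519 with nucleus 31. With the 30 majority nuclei the median correlation was 0.04 for nucleus 22 and 0.03 for nucleus 24, and nucleus 31 was the highest of them for both. With 2N nuclei the median was 0.03 for nucleus 22 (-0.11 to 0.16, n = 43 nuclei with deviations) and 0.02 for nucleus 24 (-0.12 to 0.20). The 4N nuclei with more than 60 changes were nuclei 9, 10 and 7, with 98, 75 and 64 changes. Their correlations were 0.19, 0.05 and 0.12 with nucleus 22 and 0.09, 0.01 and 0.06 with nucleus 24. Neighbouring bins share segments and all libraries share bins and mapping, so these are descriptions only. Whether the low stretches are parts copied late or early in S phase was not tested, because no replication timing data were used here. Whether nuclei 22 and 24 were in S phase was likewise not tested, and read depth and amplification of the single libraries are unknown.

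**Figure D5:**
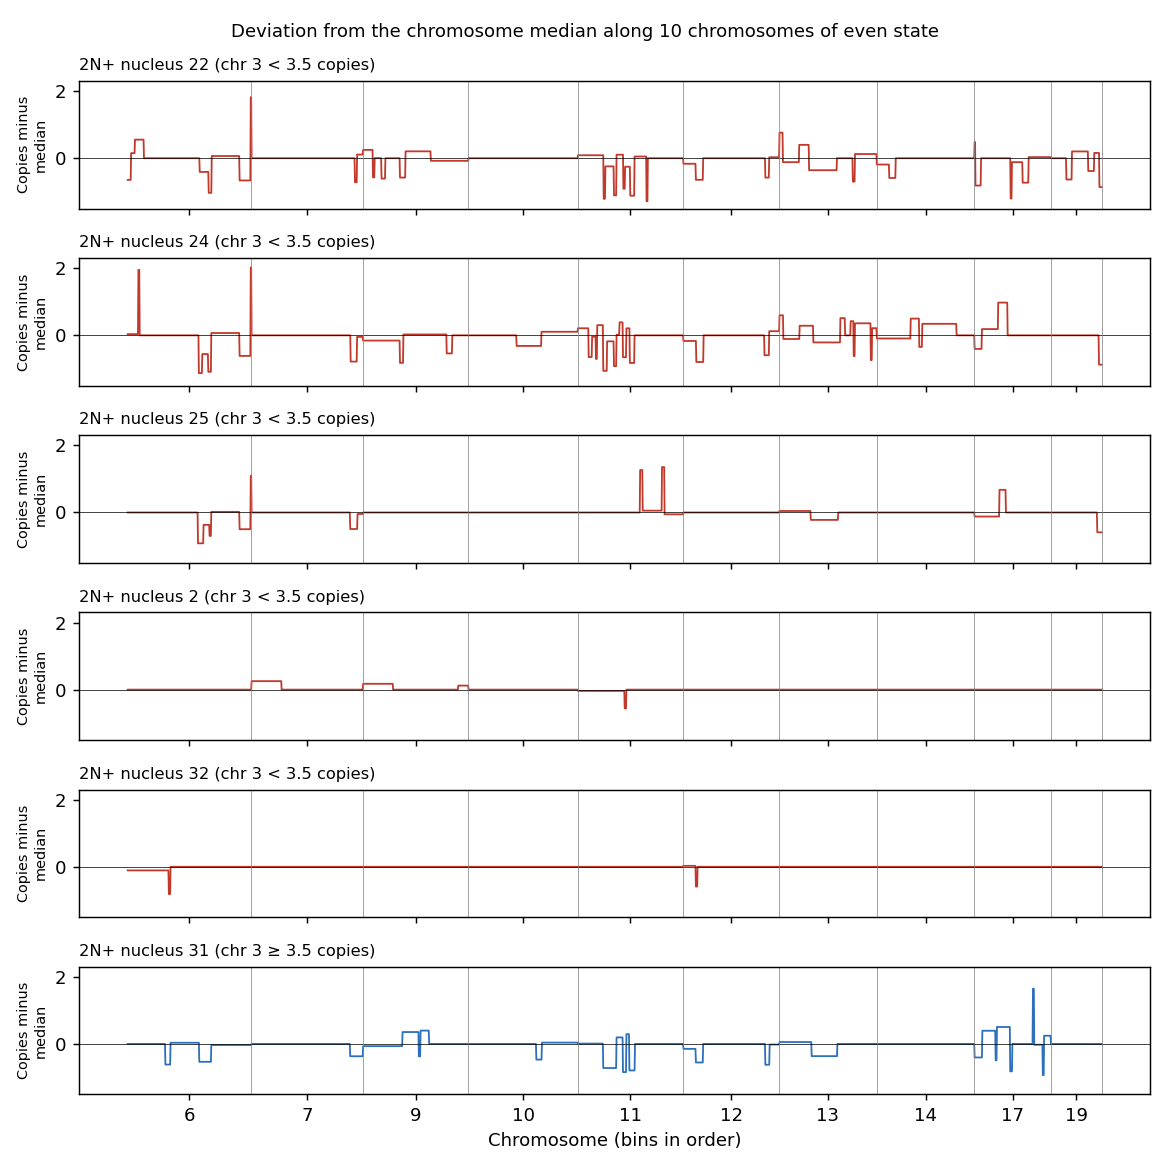
Copies minus the median of the chromosome (y axis) along the bins of 10 chromosomes (x axis, in order), 1 panel per nucleus, for the 5 minority nuclei in red and majority nucleus 31 in blue. Nuclei 22, 24 and 31 have many short low stretches, several of them in the same places, nucleus 25 has some of these, and nuclei 2 and 32 are nearly flat.

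The bulk library of the 2N+ gate, which has no replicate, had chromosome 3 at 3.76 copies. The mean over the 35 nuclei was 3.85 ± 0.319 (SD, n = 35), made of means of 3.14 over the minority and 3.96 over the majority. Chromosome X was at 1.69 copies in bulk, against a mean of 1.753 ± 0.466 over nuclei (SD, n = 35). These bulk values differed from the means of the nuclei by less than the SD over nuclei. That SD describes single nuclei and is not the error of a mean, so it does not measure how well bulk and nuclei match.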

How the data were processed

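Whole-genome sequencing libraries of 94 single nuclei and 2 bulk samples were measured. Bowtie 1.0 and mm9 are named per the submitters' processing notes, and for binning, correction, duplicate handling and segmentation the method was not given in the sources used here. What the deposited table holds is a quantity other than counts: linear copy ratios of the authors, with library means from 0.994 to 1.09 and equal values over runs of bins. Counts and depth per library are unknown, so precision comes only from the spread of nuclei. A line was split at white space into 99 fields. No pair of libraries was identical.

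Each library took its gate from its title. Copies are 2 times a value over the chromosome 4 median. The minority, the chromosome sets and the lists were chosen with earlier results of these data known. A group difference is a difference of medians, called at 0.5 copies. Regions came from least-squares partition of the median profile of all nuclei, with 5 bins as the minimum and 5 as the penalty factor. Named chromosomes and regions are those past 0.5 copies, those of the rule, those of constant state and the widest in spread; gene names mark a chromosome only, by a GRCm38 gene table without its coordinates. Low bins, examples, nucleus 31, the chromosome 1 start and distal chromosome 2 were picked with their values in view.

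Chromosome medians, value changes and partition were tested on simulated data. Shares have exact Clopper-Pearson intervals at 95%. No test between groups was run. Alternatives were other thresholds, means over bins, other denominators, other limits and leaving out nuclei. Scripts ran in Python 3.11.15 with pandas 2.3.3, numpy 2.4.6, matplotlib 3.10.9 and scipy 1.17.1.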

Additional observations from a re-analysis of the deposited data

Results flagged for a closer look

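In 4 of 23 quantities examined over the 5 minority nuclei, 1 nucleus stood apart from the other 4 by more than Dixon's 95% critical value of 0.71. Chromosome copies stand near whole numbers, so a nucleus 1 whole copy away from 4 alike nuclei passes this limit readily. The limit served only to list nuclei, and no chance rate applies to it. Nucleus 32 had chromosome 5 at 2.79 copies, against 1.99 to 2.07 in the other 4 nuclei, and chromosome Y, covered by 3 bins, at 0.904 copies, against 0.0421 to 0.0936. Nucleus 25 had chromosome 6 at 3.96 copies, against 2.97 to 3.08, and chromosome 8 at 3.73 copies, against 2.85 to 2.98. For comparison, chromosome 5 was at 3 copies in 12 of 30 majority nuclei and 6 of 47 2N nuclei, chromosome 6 at 4 copies in 1 of 30 and 1 of 47, chromosome 8 at 4 copies in 0 of 30 and 1 of 47, and chromosome Y at 1 copy in 12 of 30 and 3 of 47. The cause of these values was not tested.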

How the results depend on the processing

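Over 30 results and 289 alternatives, 262 values stayed within the spread of nuclei or within 1.5 times a count. A further 27 moved by more and 0 changed sign as calls. Thresholds of 3.3 and 3.7 copies lie in the gap between 3.24 and 3.86, so their values repeat the main ones by construction. Chromosome 4 is likewise held by its own anchor. These count among the 262. A value within the spread can still fall below the 0.5 call, as chromosome 2 did by means over bins, at -0.236 copies. The minority held 5 nuclei at thresholds of 3.3 and 3.7 copies and with another denominator, and 4 by means over bins, where nucleus 32 changed side. Leaving out each minority nucleus in turn gave -0.80 to -0.40 copies for chromosome 1, -0.79 to -0.37 for chromosome 15, 26 to 56.5 value changes as the median of the minority and 156 to 1203 differing bins. Without both nuclei 22 and 24, a choice made after seeing the data, the differences were -0.0362 copies for chromosome 1, -0.0226 for 2, -0.0012 for 10, -0.0393 for 15, -0.0399 for 16, -0.0270 for 18 and -0.0068 for X, the median of changes was 20, 312 bins differed and mean copies differed by -0.0542, against -0.159 with all 5 nuclei. Chromosome 10 differed by -0.0052 when copies came from the multiplier nearest whole numbers. Counting only steps of 0.5 copies or more, the majority median was 9 changes. The majority had 2, 3 and 1 nuclei nearer to the 2N profile over all bins, with X added and with the other anchor. At 0.75 copies 452 bins differed. The minority count nearer to 2N was 3 in each of these. Groups of 5, segmented ratios without depth and 1 culture limit what can be said. Counts rest on segments set by the submitters' method. No paired analysis was possible because the nuclei carry numbers within their gate that pair nothing, and no test was run.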
